A study of Mus musculus with 8 samples.

Results

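Peaks of DRIP-seq, the sequencing of DNA pulled down by an antibody to DNA-RNA hybrids, that lay between genes and in repeat-masked sequence were collected from mouse embryonic fibroblasts (MEFs). A peak was taken when it overlapped no gene body of the GENCODE M21 annotation and no base within 1 kb of a transcript start, when more than 50% of its bases were repeat-masked (lower case) in the GRCm38 reference, and when it lay outside the first 8 Mb and the last 2 Mb of an autosome. This gave 144099 of the 344010 peaks in 4 lists, which merged to 73461 separate loci. Peaks of any score were taken.

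All libraries came from Rtel1F/F;WT RNH1-GFP MEFs, a line with floxed *Rtel1* and a doxycycline-inducible WT RNaseH1-GFP, so the controls carry both modifications too. GFP adenovirus left *Rtel1* in place (GFP) and Cre-GFP adenovirus deleted it (Cre). Doxycycline at 2 μg/ml followed after 48 h and cells were collected 48 h later (DOX), or doxycycline was left out (mock). Where values for all lists follow one another, they run from GFP cells without and with doxycycline to Cre cells without and with it. For each of the 4 conditions 3 immunoprecipitations were pooled into 1 library, which leaves no spread between replicates. No test between conditions was therefore possible, and the exact 95% intervals below cover counting error only. The share of cells that had lost *Rtel1* or expressed WT RNaseH1-GFP cannot be read from peak lists. The 4 input libraries were not analysed here.

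An R-loop is an RNA:DNA hybrid beside a displaced DNA strand. The antibody, S9.6, recognises the hybrid, RNaseH1 degrades its RNA strand, and RTEL1 is a helicase that unwinds DNA structures at telomeres and elsewhere, including G-quadruplexes (G4s). Much of the mouse genome between genes derives from LINE-1, a retrotransposon that encodes an RNA-binding protein (ORF1) and an endonuclease with reverse transcriptase (ORF2) and ends in a stretch of A bases. Most copies lack their 5′ part because reverse transcription starts at the 3′ end and often stops early.

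Sequences of 3 members are shown because they stand for kinds of repeat described below. All are on the plus strand of GRCm38, with at most 300 bases taken from the middle of a peak. Each is the best-ranked member of its repeat class, with capitals for the 24-base word that is commonest in the reference. These are a long tandem array with a lag of 31 bases, whose word has 228 copies, a high-copy member inside LINE-1 ORF2, whose word has 15258 copies, and a low-copy member, whose word has 2422 copies.
long tandem, chrY:90767759-90768019: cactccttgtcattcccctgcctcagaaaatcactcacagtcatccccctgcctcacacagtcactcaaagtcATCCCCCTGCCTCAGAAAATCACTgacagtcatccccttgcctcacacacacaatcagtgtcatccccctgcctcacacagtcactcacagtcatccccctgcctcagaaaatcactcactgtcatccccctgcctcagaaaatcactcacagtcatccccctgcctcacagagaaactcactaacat
high copy, chr3:22656614-22656913: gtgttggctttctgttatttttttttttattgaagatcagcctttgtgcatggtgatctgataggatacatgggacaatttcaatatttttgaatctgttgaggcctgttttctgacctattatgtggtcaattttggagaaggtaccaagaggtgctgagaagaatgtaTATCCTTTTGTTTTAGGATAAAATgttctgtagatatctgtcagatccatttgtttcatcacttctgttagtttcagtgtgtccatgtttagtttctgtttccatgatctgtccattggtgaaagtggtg
low copy, chr15:86194646-86194945: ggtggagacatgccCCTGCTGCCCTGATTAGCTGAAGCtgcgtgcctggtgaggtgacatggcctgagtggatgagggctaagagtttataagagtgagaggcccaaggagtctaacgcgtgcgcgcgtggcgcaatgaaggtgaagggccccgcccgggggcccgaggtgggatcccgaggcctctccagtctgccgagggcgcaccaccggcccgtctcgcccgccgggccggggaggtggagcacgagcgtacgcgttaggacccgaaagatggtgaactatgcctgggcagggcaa

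Intergenic masked peaks made up 41.0% (95% interval 40.7 to 41.3) of the GFP mock list, 41.1% (40.7 to 41.5) of the GFP DOX list, 33.9% (33.6 to 34.2) of the Cre mock list and 50.0% (49.7 to 50.3) of the Cre DOX list. Their numbers were 35930, 24733, 30910 and 52526 in this order. At these list lengths Cre DOX had the most and GFP DOX the fewest. Among GFP cells the DOX list held 0.688 times the members of the mock list, against 0.687 times for the whole lists, so members were fewer in proportion to the list. Among Cre cells the DOX list held 1.70 times the members of the mock list, against 1.15 times for the whole lists. The depth of the libraries is unknown, and how far it sets these numbers was not tested. Members made up 80.7%, 86.2%, 79.0% and 89.9% of the intergenic peaks that passed the same filters. Per Mb of intergenic 500-bp windows there were 76.8, 52.9, 66.1 and 112 members in the 468 Mb of masked windows, and 10.3, 4.72, 9.81 and 7.04 unmasked peaks in the other 838 Mb. When the 60219 highest-scoring peaks of each list were compared, the members numbered 25431, 24733, 21711 and 32936, so that Cre mock and not GFP DOX had the fewest, and the ratios were 0.973 and 1.52.

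Members were wider in Cre DOX, where the median width was 572 bp against 316, 376 and 364 bp in the other lists. The whole lists ran the same way, with medians of 513 bp in Cre DOX and 295, 351 and 343 bp in the others. Members covered 49.5 Mb in Cre DOX and 15.7, 13.5 and 16.5 Mb in the other lists. Their mean width was 942 bp in Cre DOX and between 438 and 545 bp elsewhere. The narrowest member was 213 bp in Cre DOX and 106, 107 and 132 bp in the others, so the lists also differed in the smallest peak that was called. Members of 5 kb or more numbered 593 in Cre DOX and 10, 12 and 19 in the other lists.

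**Figure D1:**
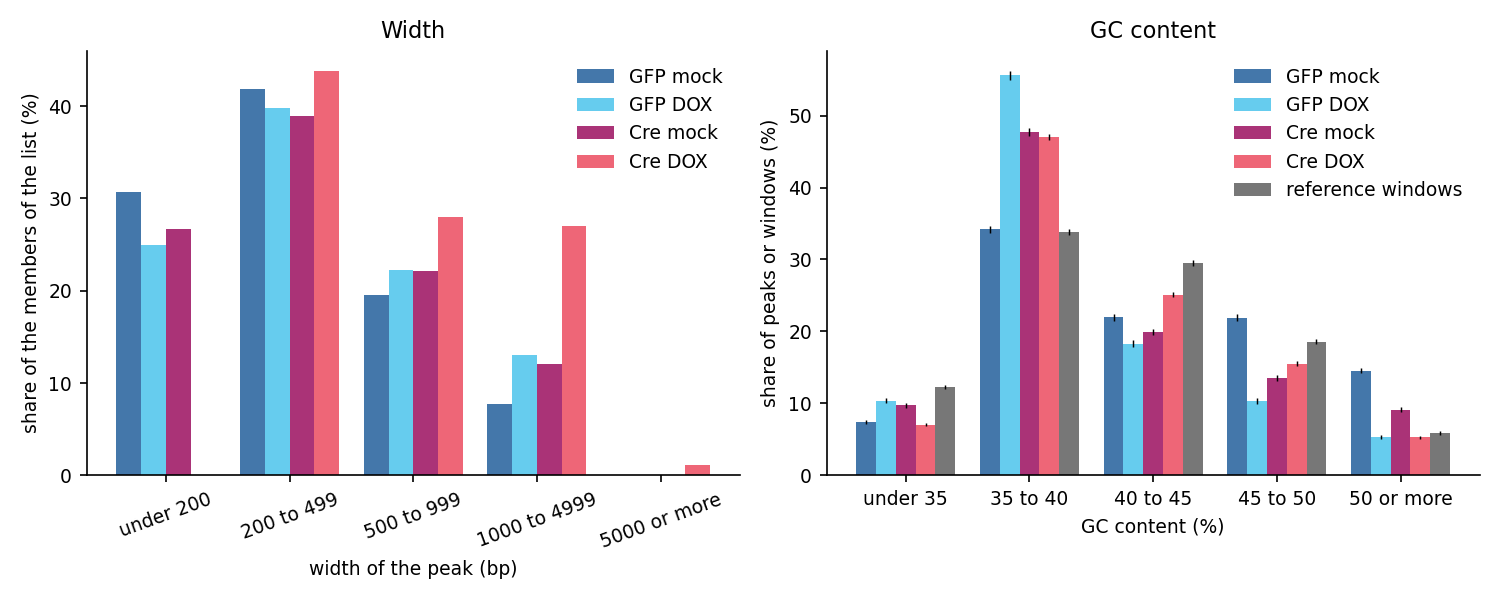
Shares of intergenic masked peaks by width (bp, left) and by GC content (%, right) in the 4 peak lists, drawn as bars, and for GC also in masked 500-bp windows of the same intergenic sequence, with exact 95% intervals as black lines in the GC panel. Cre DOX has no member under 200 bp and 27% of 1 to 5 kb, and the class of 35 to 40% GC holds 55.6% of GFP DOX members against 34.2% of GFP mock members.

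Scores of members were spread like those of their lists. Of the members, 9.46%, 10.2%, 10.3% and 12.3% lay in the top decile of scores, where 10.4%, 10.5%, 10.7% and 10.7% of all peaks did with ties kept. Intergenic peaks outside masked sequence reached the top decile in 12.6%, 13.7%, 13.8% and 7.39%. Masked peaks thus stood above unmasked ones in Cre DOX and below them in the other lists. The median deposited fold enrichment of members was 3.58, 3.58, 3.54 and 3.20.

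Most members were pieces of LINE-1. Repeat families were built from the masked sequence itself, and the most abundant gave a consensus of 6196 bp with an ORF1 of 357 codons at bases 546 to 1616, an ORF2 of 1281 codons at bases 1660 to 5502 and 23 closing A bases. Its ORF1 matched the domesticated LINE-1 protein L1TD1 with 40.2% identity over 127 residues. A member was counted as LINE-1 when at least 50% of its bases aligned to the family of this consensus. LINE-1 held 76.9% (76.5 to 77.4) of GFP mock members, 89.7% (89.3 to 90.1) of GFP DOX members, 83.3% (82.9 to 83.7) of Cre mock members and 88.7% (88.4 to 88.9) of Cre DOX members. In consecutive 500-bp windows of intergenic sequence that passed the same filters and of which every 20th was measured (n = 46782), the share was 47.6% (47.2 to 48.1). All 4 lists lay above it. The Y chromosome holds 152580 of the 935475 masked windows, and 19.6% of windows there were LINE-1. On the other chromosomes the share of windows was between 40.4% (chromosome 11) and 60.4% (X), also below all lists. Windows of Y enter every value given for windows here.

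The LINE-1 share rose with peak width, from 66% of GFP mock members under 200 bp to 92.1% of those of 1 to under 5 kb. Of all bases in members, 82.2%, 93.3%, 89.0% and 93.2% aligned to LINE-1, against 46.5% of the bases in the windows. In members of 500 bp to under 1 kb, the class nearest to the windows, LINE-1 shares were 86.3%, 95.2%, 91.2% and 91.0%, each above the 47.6% of windows. Cre DOX and Cre mock were close at matched width, with 81.3% and 82.3% in members of 200 to under 500 bp, the shares just given in the next class and 97.8% and 96.3% in members of 1 to under 5 kb. Which of GFP DOX and Cre DOX had the higher share depended on the selection, since in the 60219 highest-scoring peaks of each list they stood at 89.7% and 91.3%. Masked peaks inside gene bodies had lower shares than intergenic ones in every list, with 58.4%, 73.9%, 62.9% and 76.1%. The order of the lists was the same except that Cre DOX stood above GFP DOX there.

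**Figure D2:**
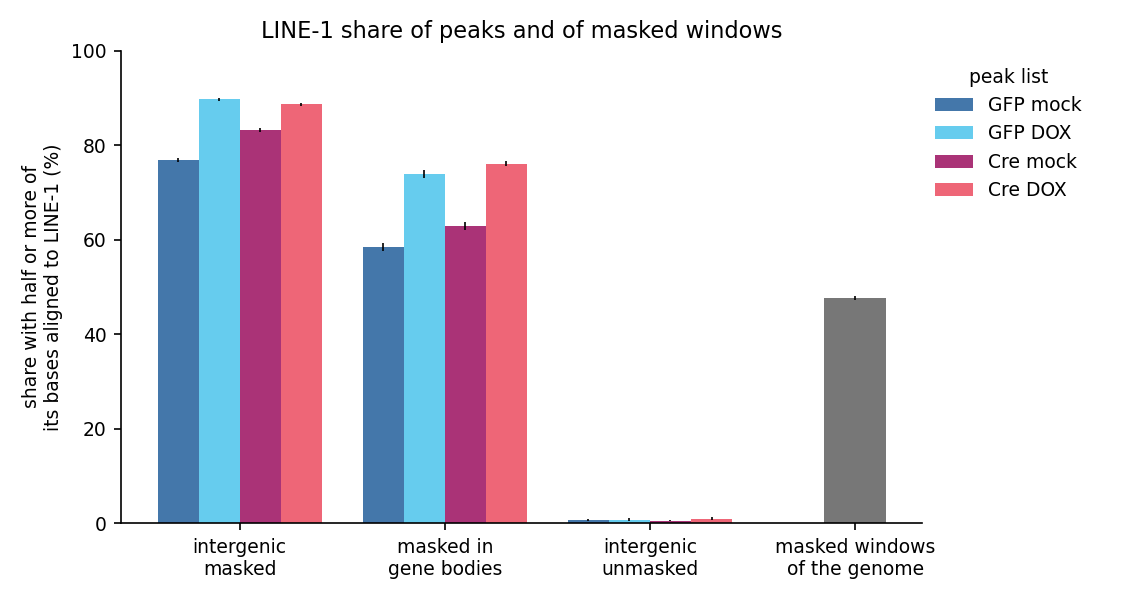
Share of peaks (%) with at least 50% of bases in LINE-1 in each list, for intergenic masked peaks, masked peaks in gene bodies and intergenic unmasked peaks, with exact 95% intervals. The shares of intergenic masked peaks lie between 76.9% and 89.7%, above the 47.6% of masked windows, and unmasked peaks are below 1%.

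The LINE-1 share followed base composition within each list. Among members of 35 to 40% GC it was 96.3%, 98.5%, 97.5% and 98.0%, against 66.7% of windows of that GC. Among members of at least 50% GC it was 38.2%, 31.1%, 30.7% and 51.5%, against 30.2% of windows. There the intervals of GFP DOX (28.6 to 33.7) and Cre mock (29 to 32.4) overlapped that of the windows (28.5 to 32). GFP mock had the largest GC-rich fraction, with 14.5% of members at 50% GC or more against 5.36%, 9.11% and 5.29% in the other lists. Median GC was 41.8%, 37.9%, 38.7% and 39.4%, against 40.4% in windows.

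LINE-1 members came from different parts of the element in different lists. By the middle of its alignment, a member was placed before ORF1, in ORF1, in ORF2 or after ORF2, the last being the untranslated 3′ end of 694 bp. In GFP mock 8326 of 27302 placed LINE-1 members, 30.5% (30 to 31), lay after ORF2. The share was 13.2% (12.8 to 13.7) for GFP DOX, 17.3% (16.8 to 17.7) for Cre mock and 24.3% (23.9 to 24.7) for Cre DOX. The windows stood at 23.5% (22.9 to 24), between the lists. ORF2 held 54.9% of the GFP mock set and 68.4%, 65.3% and 60.4% of the others, against 60.7% of windows. ORF1 held between 13.0% and 17.2% in the lists and 12.6% in windows. The part before ORF1, which contains the promoter of full-length copies, held between 1.11% and 1.63%, below the 3.20% of windows.

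In counts, GFP mock and GFP DOX had 14983 and 15134 ORF2 members and 8326 and 2926 members after ORF2. With equal numbers of peaks these were 10458 and 15134 in ORF2 and 6192 and 2926 after it. Cre DOX exceeded Cre mock in both, with 28044 against 16728 in ORF2 and 11264 against 4428 after it. In the 60219 highest-scoring peaks of each list, the shares after ORF2 were 32%, 13.2%, 16.5% and 22.3%, and in members at least 213 bp wide they were 28.8%, 12%, 15.4% and 24.3%. In the top decile of scores they were 39.6%, 18.5%, 18.9% and 24.2%. GFP mock had the highest value and GFP DOX the lowest in each of these selections, but in the top decile the intervals of GFP DOX (16.9 to 20.2) and Cre mock (17.4 to 20.5) overlapped. GC content moved with this, since among all GFP mock members those after ORF2 had a median GC of 46.9% and those in ORF2 one of 37.7%. Whether GC content or library preparation set the difference between lists was not tested.

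Along the consensus, coverage was counted in bins of 200 bases and divided by the mean of the list. In GFP mock the bin at bases 5801 to 6000 stood at 2.68 times the mean, against 0.878, 1.18 and 1.51 in the following lists and 2.22 in windows. In GFP DOX the highest coverage lay within ORF2, where the bin at 2401 to 2600 stood at 1.52, against 0.977 for GFP mock, 1.31 for Cre mock, 1.07 for Cre DOX and 0.806 for windows. The bin at 201 to 400, before ORF1, was between 0.0866 and 0.152 in the lists and 0.312 in windows. The last bin, with the closing A bases, was at 1.11, 0.404, 0.553 and 0.698 in the lists, below the 1.69 of windows in each.

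**Figure D3:**
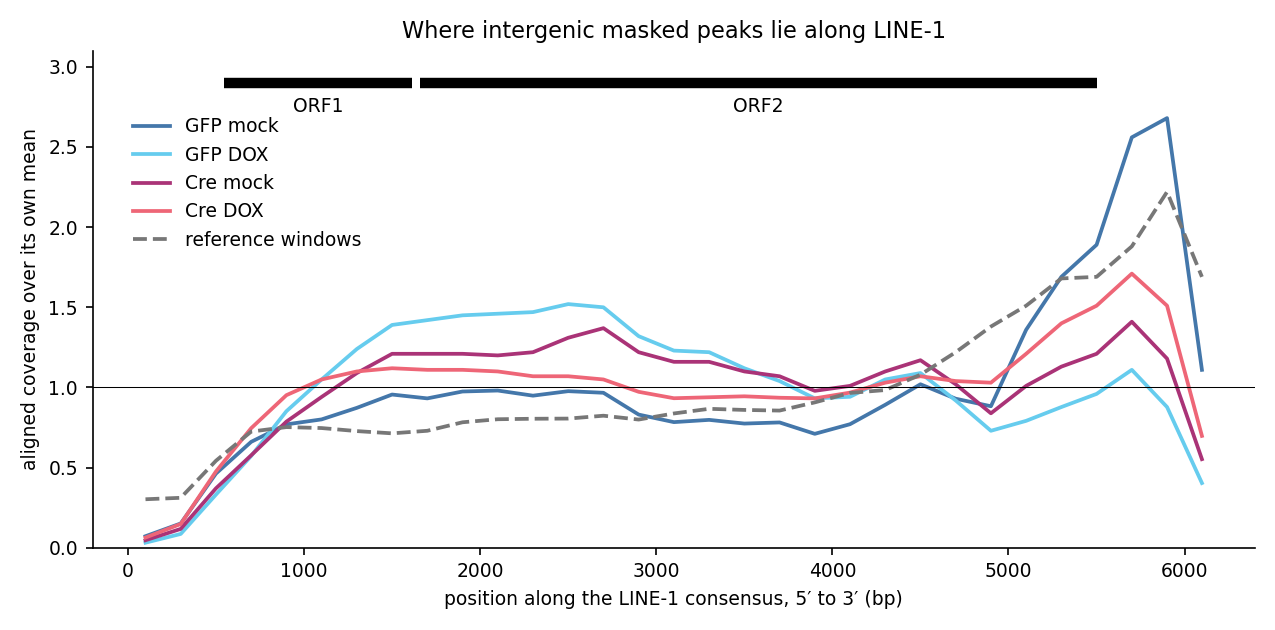
Coverage of the 6196-bp LINE-1 consensus (base position, horizontal axis) by LINE-1 members of each list and by masked windows, in bins of 200 bases and relative to the mean of each set. GFP mock peaks at 2.68 near the 3′ end, whereas GFP DOX is highest, at 1.52, in the bin at bases 2401 to 2600 within ORF2.

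LINE-1 members were rarely near-identical to the consensus. Of LINE-1 members, 36.8%, 46.5%, 43.3% and 37.8% had 90 to 95% identity to the consensus, against 23.2% of windows. Copies with 95% identity or more made up 7.85%, 9.55%, 8.46% and 8.60%, against 26.9% of windows. Restricting the windows to those with at least 50% of their 100-base words unique in the reference lowered their share of such copies to 9.92% and left their share of 90 to 95% identity at 27.5%. Members were not filtered in this way, and the part of read placement in their low share of near-identical copies was not tested.

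Members as a whole lay where reads of 100 bases are unique. On average 95.9%, 94.1%, 95.2% and 92.7% of the 100-base words of a member occurred nowhere else in the reference, against 66.5% in windows. Members without any unique word made up between 0.101% and 0.162% of a list, against 18.9% of windows. How reads with several matches were treated is not given in the sources used here, so repeats without unique words cannot be judged from the lists. In windows with at least 50% unique words the LINE-1 share was 47.9%, close to the 47.6% of all windows, so the share in windows hardly moved with this filter.

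Predicted G4s (G4Hunter, absolute score of at least 1.5 in 25 bases, both strands) were less frequent in members than in windows. They occurred in 14.7% (14.4 to 15.1), 6.49% (6.19 to 6.80), 10.8% (10.5 to 11.2) and 15.9% (15.6 to 16.2) of members in the order of the lists, against 22.6% (22.2 to 23.0) of windows. Within LINE-1 they were concentrated after ORF2, where mouse elements carry a G-rich stretch. There, members of 500 bp to under 1 kb held one in 33.0%, 26.9%, 31.7% and 39.8%, against 55.9% of windows of 500 bp. In ORF2 3.02%, 1.55%, 2.21% and 7.79% (7.48 to 8.11) of members of any width held one, against 4.06% (3.73 to 4.41) of windows, so Cre DOX, whose ORF2 members had a median width of 767 bp, stood above the windows there. With a score of at least 2 the shares of all members were 7.85%, 3.23%, 5.77% and 9.57%, more than 1.5 times lower in each list.

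By repeat class, high-copy members, whose 24-base words had a median of at least 50 copies in the reference, made up 41.1%, 51.6%, 46.7% and 48.3% of the lists, against 42.1% of windows and 22.2% of windows with at least 50% unique 100-base words. The class and the order of the lists in it depend on the number of copies required. With at least 10 copies the shares were 60.4%, 73.7%, 67.1% and 66.1%, and with at least 500 they were 13.5%, 16.8%, 14.8% and 18.6%, where Cre DOX and not GFP DOX was highest. Short tandem members, with at least 30% of bases in perfect runs, made up 3.05%, 1.89%, 2.55% and 1.19%, against 1.76% of windows. Long tandem members made up 3.16%, 2.77%, 3.12% and 4.52%, against 3.51%. Their commonest lag was 42 bases, in 24.6% to 55.8% of the class, and between 64.8% and 91.5% of members with lags of 42 or 66 bases were placed on LINE-1 before the end of ORF1, where mouse LINE-1 carries short internal repeats. B1, the short mouse retrotransposon related to Alu, held 1.56% of GFP mock members and between 0.481% and 0.835% in the other lists. Its share fell with width, from 3.62% of GFP mock members under 200 bp, a class that Cre DOX lacks. In members of 200 to under 500 bp the shares were 0.995%, 0.477%, 0.698% and 1.10%. There the intervals of GFP mock (0.843 to 1.17) and Cre DOX (0.972 to 1.25) overlapped.

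The low-copy member shown above was among the 3 highest-scoring members of Cre mock. The deposited score, 10 times the −log10 q-value, can be ordered only within a list. At this locus, chr15:86193939-86195838, 6.79 kb from the antisense gene *Gm15569*, the GFP mock score was 579, the GFP DOX score 548, the Cre mock score 762 and the Cre DOX score 297. The ranks among all peaks of each list were 28, 32, 18 and 64, so it stood near the top of every list. The peak was 1682, 960, 1715 and 1014 bp wide and did not align to LINE-1. Its class rests on 24-base words counted in the reference, where their median was 5 copies. Copies missing from the reference were not counted.

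Perfect tandem runs of at least 24 bases in eligible intergenic sequence had a peak in few cases. Runs of AGG or its complement were overlapped in 6.94%, 2.33%, 5.53% and 2.95% of 6986 cases, and runs of AAG in 4.35%, 1.11%, 3.50% and 2.22% of 9899. Runs of A were overlapped in 2.84%, 2.44%, 3.38% and 5.18% of 20209. Runs of AC, the most numerous kind with 119647, were overlapped in 1.03%, 0.501%, 0.656% and 1.53%, and runs of AT in at most 0.630%. Runs of AG were overlapped in 0.918%, 0.351%, 0.703% and 1.08% of 60151. As a background, the bases in members came to 3.37%, 2.88%, 3.53% and 10.6% of the length of the masked windows. Cre DOX thus covered more sequence than Cre mock by a larger factor than that by which its overlaps with runs of A, AC or AG were higher. Runs of AT, with 0.154% and 0.630%, went the other way, and overlaps with AGG and AAG runs were lower in Cre DOX than in Cre mock.

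**Figure D4:**
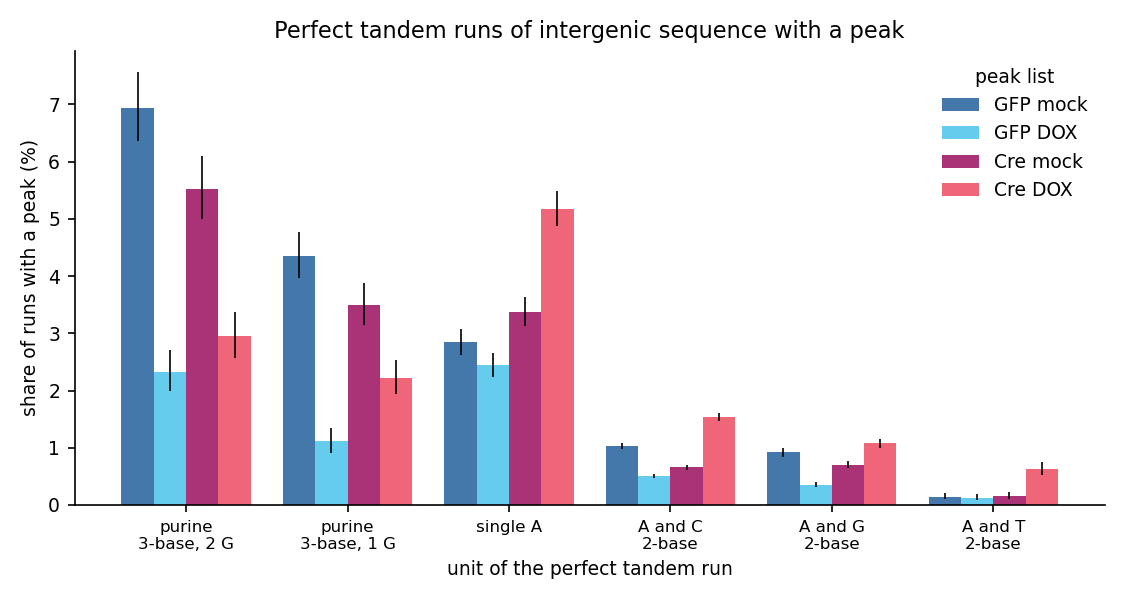
Share (%) of perfect tandem runs of at least 24 bases in eligible intergenic sequence that overlap a peak of each list, by kind of unit, with exact 95% intervals. Runs of AGG, the purine unit with 2 G, have the highest share plotted, 6.94% in GFP mock, and runs of AT stay at or below 0.630%.

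The question of the design is how *Rtel1* deletion and RNaseH1 alter hybrids, and each comparison was read in both directions. A member was absent from another list when no peak of that list, of any kind or score, overlapped it by 1 bp. Of GFP mock members, 66% (65.6 to 66.5) had no peak in GFP DOX, against 69.4% of the whole GFP mock list. Of GFP DOX members, 51.9% (51.3 to 52.5) had no peak in GFP mock, against 57.0% of the list. Among peaks of 200 to under 500 bp the shares were 72.4% of members and 74.7% of the list for GFP mock, and 59.9% and 64.9% for GFP DOX. By family, 60.1% of LINE-1 members and 85.8% of other members of GFP mock had no peak in GFP DOX, and B1 members had none in 93.9% of 560. Within LINE-1, absence was 52.0% (51.2 to 52.8) in ORF2 and 76.9% (76.0 to 77.8) after ORF2. Among members of 200 bp to under 500 bp it was 61.3% and 81.1%. In the other direction the order within LINE-1 was reversed, and GFP DOX members had no peak in GFP mock in 53.0% (52.2 to 53.8) in ORF2 and in 36.6% (34.9 to 38.4) after it. LINE-1 and other members of GFP DOX were close, at 51.8% (51.1 to 52.5) and 53.1% (51.1 to 55.0).

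In Cre cells the direction of the list sizes was the opposite. Of Cre mock members, 26.5% (26.0 to 27) had no peak in Cre DOX, against 51.3% of the list and 81.5% of its intergenic unmasked peaks. LINE-1 members were absent in 17.1% (16.6 to 17.5) and other members in 73.4% (72.2 to 74.6). Within LINE-1 the values were 15.1% (14.6 to 15.7) in ORF2 and 26.3% (25 to 27.6) after it. Absence fell with width, from 48.0% of Cre mock members under 200 bp to 1.09% of those of 1 to under 5 kb, and the LINE-1 share rose with it. In neither genotype were LINE-1 and other members compared at matched width. Of Cre DOX members, 65.2% (64.8 to 65.6) had no peak in Cre mock, against 63.6% of the list. Cre DOX members covered 49.5 Mb and Cre mock members 16.5 Mb, and a longer list meets more peaks of another list by position alone. How much of the low absence this accounts for was not tested. Absence from Cre DOX was 35% with at least 50% of the peak required to be covered by the other list, against 60% of the list under the same rule. It was 40.9% with a −log10 q-value of at least 2 in both lists, against 60.6%, and 67.7% with the top decile of scores in both lists, against 76.2%. Members in the top decile set against the full Cre DOX list were absent in 24.6%, against 43.8% of the list, so the higher value came with the shortening of the other list.

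For *Rtel1* deletion without doxycycline, 55.4% (54.8 to 56.0) of Cre mock members had no peak in GFP mock, against 64.8% of the list, and 60.3% (59.8 to 60.8) of GFP mock members had none in Cre mock, against 61.5%. After ORF2 the directions differed, with 46.4% of Cre mock members absent from GFP mock and 69.9% of GFP mock members absent from Cre mock. In ORF2 the values were 54.5% and 47.7%. Under doxycycline, 70.1% (69.7 to 70.4) of Cre DOX members had no peak in GFP DOX, against 70.3% of the list, and 18.7% (18.2 to 19.2) of GFP DOX members had none in Cre DOX, against 37.5%. The last share of members was 29.1% with equal numbers of peaks, against 48.4% of the list under the same rule, 30.8% with a −log10 q-value of at least 2, against 45.1%, and 61.5% in the top decile of both lists, against 66%. For the top decile set against the full Cre DOX list it was 16.7%, against 30.3%. Cre DOX members after ORF2 were absent from GFP DOX in 83.1% (82.4 to 83.8) and those in ORF2 in 61.9% (61.3 to 62.5). At matched width the gap was small or gone, with 91.2% and 87.9% in members of 200 to under 500 bp and 75.5% and 75.3% in those of 500 bp to under 1 kb. These comparisons share libraries, and a property of 1 library enters 2 of them.

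**Figure D5:**
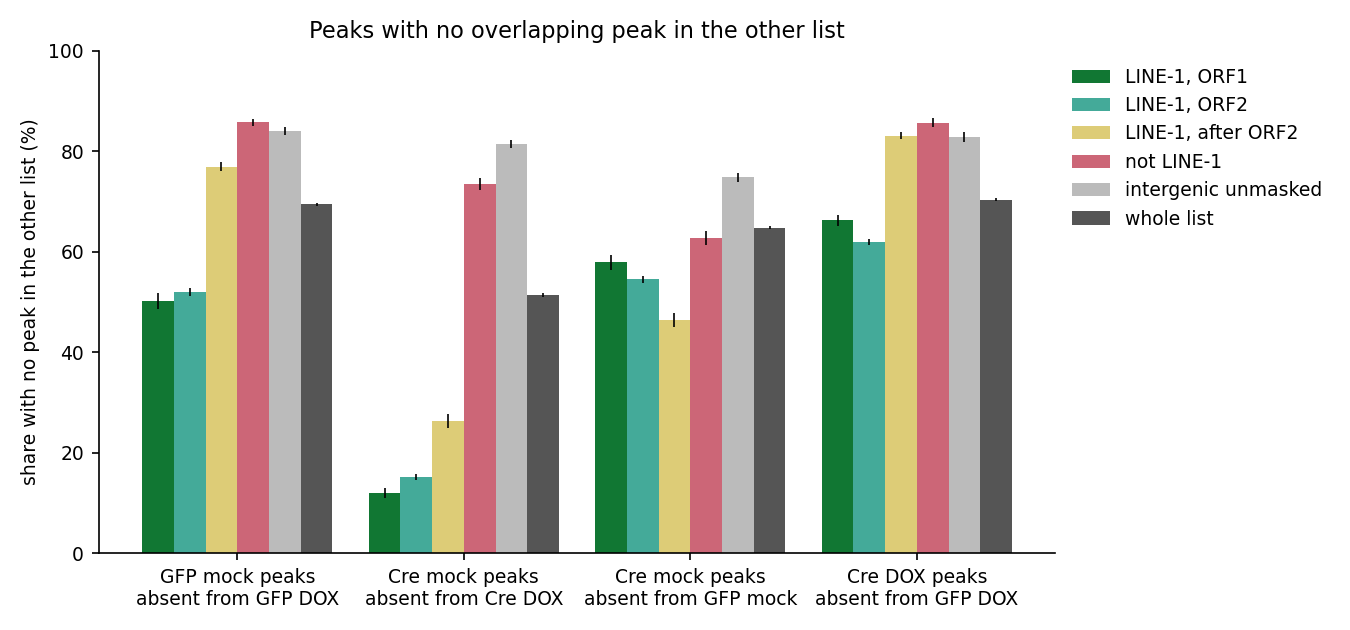
Share (%) of peaks of the list named first that have no peak in the other list, for LINE-1 members placed in ORF1, in ORF2 and after ORF2, other members, intergenic unmasked peaks and the whole list, with exact 95% intervals as black lines. In each of the 4 comparisons members outside LINE-1 are absent more often than those in ORF2, by the widest margin for Cre mock against Cre DOX (73.4% and 15.1%). Widths are not matched between the kinds of peak.

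Absence was lower among high-scoring peaks of any kind. Members in the top decile of scores had no peak in the full other list in 16.7% to 49% over the 8 directions, and all peaks in the top decile had none in 30.3% to 50.3%.

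Most loci were found in few lists. Of the 73461 loci, 57.7% had a peak in 1 list, 19.4% in 2, 10.7% in 3 and 12.2% in all 4. Loci of all peaks were not counted in this way. Between 37.5% and 70.3% of a whole list had no peak in the list compared, so few shared loci cannot be read as particular to members. Loci in 1 list had a median width of 292 bp and were LINE-1 in 71.9%, and the 8939 loci in all 4 lists had a median merged width of 1994 bp and were LINE-1 in 92.5%. Of the latter, 77.0% of the LINE-1 loci were placed in ORF2. Cre DOX alone held 23889 loci, or 32.5%, of which 85.5% were LINE-1. GFP mock alone held 9799, with a median GC of 46.9%, of which 49.8% were LINE-1, and 50.9% (49.5 to 52.3) of these LINE-1 loci lay after ORF2. Among loci of GFP DOX alone that share was 16.3% (14.7 to 18). Loci of all 4 lists have a median width above the length of the part after ORF2, and placement by the middle of an alignment puts long alignments in ORF2, so these placements cannot be compared between narrow and wide loci. Wider loci can meet peaks of more lists by their extent, so width and number of lists cannot be told apart here.

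Among the best-scoring loci of 1 list only, 5 of the 8 named by rule, 2 for each list, met the measure of LINE-1. The best of GFP mock, at chr2:39240482-39240594 with a score of 162, aligned to the last bases of the consensus, from 6128 to 6196, and held a run of 45 A bases on one strand. The best of GFP DOX, at chr6:75588445-75588551 with a score of 77, was counted by an alignment to bases 6162 to 6196 alone, most of which are the closing A bases, and held such a run of 55 bases, so its place in LINE-1 is uncertain. The best of Cre DOX were ORF2 pieces of 93.7% and 96.3% identity to the consensus, at chr3:22656606-22656922 with a score of 152 and chr17:38896545-38896762 with a score of 144. The former is the high-copy sequence shown above. The latter has 19.3% unique 100-base words. The best of Cre mock, at chr16:16402222-16402366, was an ORF2 piece with a score of 86.

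Most members of 5 kb or more were LINE-1, with 6 of 10 (60%, 26.2 to 87.8) in GFP mock, 11 of 12 in GFP DOX and 18 of 19 in Cre mock. In Cre DOX 587 of 593 (99%, 97.8 to 99.6) were LINE-1, with a median consensus span of 5459 bases, and they held 6.76% of the bases in members of that list. The widest, of 12027 bp at chr6:130505654-130517680, aligned between bases 47 and 6196 of the consensus. The other lists had 5 or 6 separate peaks within the same locus. In GFP DOX the widest member, of 9863 bp, lay on chr19, and in Cre mock the widest, of 7093 bp, lay on chr3. Consensus spans at these loci were read from their widest peak in any list, which was a Cre DOX peak at both. The one on chr19, of 11122 bp, aligned between bases 352 and 6184, and the one on chr3, of 7221 bp, between bases 2292 and 6020. In GFP mock the widest, of 8218 bp at chr15:19710559-19718776, had no LINE-1. The best-scoring member of its locus, in Cre mock, was a long tandem array with a lag of 15 bases.

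Members lay on every autosome and on X and Y, at unequal density. Per Mb of masked windows, GFP mock had 76.8 members on all chromosomes together, with 176 on chromosome 15, 156 on chromosome 3 and 153 on chromosome 19, and 38.4 and 36.3 on chromosomes 12 and 7. The other lists had 52.9, 66.1 and 112, and chromosomes 12 and 7 had the lowest density of any chromosome but Y in each list. The X chromosome had 5555, 4165, 4797 and 8279 members. The Y chromosome had 5, 9, 7 and 8 although 152580 of the 935475 masked windows lie on it.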

How the data were processed

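DRIP-seq libraries were made from MEFs in 4 conditions, with 1 pooled library for each, and 4 peak lists were used. Per the labels and the methods, the authors digested DNA with 5 restriction enzymes, pulled down hybrids with S9.6, sequenced single-end reads of 100 bases, ran the nf-core/chipseq pipeline (BWA, mm10) and called peaks with MACS2 for each library. The deposited lists are in broad-peak format, which links nearby enriched stretches, although the stated command names narrow peaks. The control used for calling and the handling of reads with several matches are not given in the sources used here. The score deposited by the authors is 10 times the −log10 q-value, the deposited ratio is the fold enrichment over the local background, and −log10 values of p and q, also deposited, are averages over the broad peak. None is normalised between libraries, so scores were ranked within a list only. One alternative sets the same q-value limit in all lists, and median fold enrichments are printed side by side, and both can differ with the depth of a library. The deposited start and end positions, which count starts from 0, are printed as counted from 1.

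Members were found with the GRCm38.p6 sequence (2725537669 bases, lower case taken as masked) and GENCODE M21 (55450 genes). The members, lists and tests were chosen with earlier results of these data known. No annotation of repeat families was used. Repeat classes were set by tandem runs, by self-match of at least 80% at a lag of 7 to 600 bases, and by copies of 24-base words. Families were assembled from common 24-base words into 64 contigs, of which 10 formed the LINE-1 group, and peaks were aligned to them with blastn (BLAST+ 2.17.0, E-value of 1e-05). Of simulated 300-base fragments of a random sequence with 20% of bases substituted, 200 of 200 were placed correctly on that sequence. Narrower peaks, insertions, runs of A and competing contigs were not simulated, so the assignment of real peaks was not tested by this. The family and tandem-run analyses were added after the data had been seen. B1 was named by a RefSeq B1_Mus2 match of 92.8% identity. Reference windows were consecutive 500-bp windows that met the rule for members in full, of which every 20th was measured.

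No test between conditions was made. Shares have exact (Clopper-Pearson) 95% intervals, computed with scipy 1.17.1. Regions were named by rule, as the 3 highest-scoring members of each list, the 5 loci with the best mean rank among those with a member in all lists, the 2 best of each list without a peak in the others, the best of each repeat class and the widest of each list. Regions on chromosome 18 were passed over in naming, and 1 kind of short tandem repeat, with the regions the rule names for it, is not reported here. Loci are members merged at 1 bp of overlap. Alternatives changed the score, q-value, masking, overlap, annotation, flank, chromosome ends and width. The number of reads per library is unknown.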

Additional observations from a re-analysis of the deposited data

How the results depend on the processing

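No paired analysis was possible because each condition had 1 library. The ratios of member numbers kept their direction under every alternative run, but orders of the lists by other values did not. With an equal number of highest-scoring peaks Cre mock had the fewest members, 21711 against 24733 in GFP DOX. The LINE-1 share was higher in GFP DOX than in Cre DOX in the full lists and lower in the top decile (84.1% and 91.6%), with a −log10 q-value of at least 2 (89.1% and 91.9%) and with equal numbers (89.7% and 91.3%). The order by the high-copy share changed with the number of copies required. Values are given in the order GFP mock, GFP DOX, Cre mock, Cre DOX for numbers of members, then the ratios DOX over mock in GFP and in Cre cells, then the shares of Cre mock members absent from GFP mock, GFP mock from GFP DOX, Cre mock from Cre DOX and Cre DOX from GFP DOX, then the share of loci in 1 list. In the top decile of scores these were 3399, 2527, 3185 and 6470 members, ratios of 0.743 and 2.03, shares of 70.6%, 77.2%, 67.7% and 85.6%, and 78.5% of loci. All peaks under that rule were absent in 70.1%, 75.3%, 76.2% and 81.6%. Members were thus above the list except for Cre mock against Cre DOX, whereas in the full lists each of these shares was below it. GFP DOX members absent from GFP mock went the same way, with 69.1% against 64.2% of the list. With a −log10 q-value of at least 2 they were 15628, 8335, 15312 and 24869 members, ratios of 0.533 and 1.62, shares of 66.1%, 77.5%, 40.9% and 79.4%, and 65.1%. All peaks under that limit were absent in 70.1%, 77.6%, 60.6% and 78.0%. With an equal number of highest-scoring peaks, Cre DOX had 32936 members, the ratios were 0.973 and 1.52, the shares 58.7%, 62.0%, 34.2% and 60%, and 58.4%. For all of these peaks the shares were 65.3%, 64.7%, 56.3% and 59.4%. With at least 80% of bases masked the ratios were 0.745 and 1.74, the shares 54.4%, 63.4%, 21.6% and 68.7%, and 54.7%. That rule leaves the shares of the whole lists unchanged, at 64.8%, 69.4%, 51.3% and 70.3%. With 50% of a peak covered by the other list the shares were 71.9%, 78.0%, 35% and 89.7%, and 78.5%. With peaks of at least 213 bp, GFP mock had 23928 members, the ratios were 0.754 and 2.38, the last 3 shares 63.1%, 18.1% and 75.4%, and 60.2%. The shares over all peaks of that width are not given here.

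Smaller shifts came from the annotation. With protein-coding genes only, 27.2% of Cre mock members were absent from Cre DOX and 58.1% of loci were in 1 list. With 5 kb around genes the ratio in GFP cells was 0.700, GFP mock members were absent from GFP DOX in 65.1% and Cre mock members from Cre DOX in 24.7%, and 56.7% of loci were in 1 list. With chromosome ends kept, the last 3 shares were 65.5%, 26.0% and 69.5%, and 57.3%. Among the alternatives added after seeing the data, the LINE-1 share ranged from 69.1% to 85.8% in GFP mock, 84.1% to 94% in GFP DOX, 78.4% to 91.1% in Cre mock and 86.1% to 94% in Cre DOX. The share of GFP DOX members absent from Cre DOX ranged from 12.7% to 61.5%. By a regular expression in place of G4Hunter, predicted G4s were in 7.80%, 3.20%, 5.46% and 9.79% of members. The cause of these shifts was not tested, except that fewer peaks enter under the stricter rules. With 1 library for each condition and unknown depth, differences between lists cannot be assigned to genotype or doxycycline. Repeats without unique words of read length are largely outside the lists.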
